A study of Arabidopsis thaliana with 8 samples.

Results

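Organelle-encoded transcripts are those of genes that lie in the chloroplast and mitochondrial genomes and not in the nucleus. In the count table used here they are the 73 gene models, of 17921 in all, whose identifiers begin with ATCG (41 models of the chloroplast genome) or ATMG (32 models of the mitochondrial genome), and the genomes are kept apart throughout. The series covers young Arabidopsis thaliana shoots, harvested at 7 days from seedlings grown upright on MS agar with 16 h of light and 8 h of dark, in 4 genotypes: cae2-1, CA1-1, cae2-1 CA1-1 and Col, the Columbia accession. Each genotype has 2 libraries described as biological replicates, and the only count columns whose names match a sample title are those of Col, replicates 1 and 2, called library 1 and library 2 here. The values below are therefore the read counts of these 2 Col libraries, taken as Col by column name alone, and the other 6 count columns were not used. No comparison between genotypes was made, so the comparisons below set one Col library against the other and organelle models beside nuclear ones.

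The chloroplast genome is a small circular genome inherited from a cyanobacterial ancestor. It encodes core subunits of both photosystems, of the cytochrome b6f complex, of ATP synthase and of an NADH dehydrogenase-like complex, the large subunit of Rubisco, and part of its own ribosomes and RNA polymerase. The plant mitochondrial genome encodes subunits of the respiratory complexes and of ATP synthase, factors of cytochrome c maturation, ribosomal proteins and ribosomal RNA. Both genomes depend on nuclear genes for most of their proteins and for the transcription, editing and decay of their RNA. Nuclear mRNAs carry stable poly(A) tails, while in plant organelles such tails mark RNA for decay. Whether poly(A)+ RNA was selected or ribosomal RNA was depleted for these libraries is not given in the sources used here.

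The identifiers of the organelle models are not used as locus tags in the reference annotation (assembly TAIR10.1), and the count table holds no names. Notes in that annotation name 6 of the 73 models, 2 of the chloroplast and 4 of the mitochondrial genome. The chloroplast models are ATCG00670 (the plastid-encoded subunit of the Clp protease, which degrades stromal proteins) and ATCG00750 (ribosomal protein S11). The mitochondrial models are ATMG00730 (cytochrome c oxidase subunit 3, of respiratory complex IV), ATMG00410 (ATPase subunit 6-1, of the proton channel of ATP synthase), ATMG01320 (NADH dehydrogenase 2B, of complex I) and ATMG00960 (a cytochrome c assembly protein). The other 67 models are given by identifier only, without a role or a transcript length. All values of organelle models are thus counts or CPM (counts per 1000000 of the scaled library total) without correction for length: they show which models hold the reads, not which transcripts are most frequent per length.

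The listed models of the table summed to 2571129 counts in library 1 and 2408685 in library 2. The shoot markers were abundant, with 4 of the 5 fixed genes listed, all at 100 CPM or more, and a summed level of 35837 CPM in library 1 and 20592 CPM in library 2. All 7 root markers were listed, with a summed level of 30.9 CPM in library 1 and 12.9 CPM in library 2. Of these, 4 were at 0 in both libraries (COBL9, EXP7, RHD6 and WOX5). CASP1 stood at 21.3 CPM in library 1 and 4.43 CPM in library 2. It passed the exact binomial test between the libraries described below (adjusted p = 5.13e-07). CASP2 stood at 8.43 CPM in library 1 and 6.84 CPM in library 2 and did not pass that test. NRT2.1 had 3 counts in library 1 and 4 in library 2 and was not tested. No count of 1 occurred in either library, for organelle or nuclear models, while 690 models in library 1 and 715 in library 2 were listed at 2. A listed 0 can therefore stand for a count of 1, and its upper 95% Poisson limit (one-sided) is 4.74 counts, equal to 1.90 CPM in library 1 and 1.91 CPM in library 2.

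The listed models of both organelle genomes held a small part of the counts, and those of the chloroplast genome held more in both libraries. For the chloroplast genome 41 models are listed, while the reference annotation holds 85 protein-coding, 7 ribosomal RNA and 37 transfer RNA genes. For the mitochondrial genome 32 models are listed, while that annotation holds 33 protein-coding, 0 ribosomal RNA and 10 transfer RNA genes. These 2 sets are not the same genes. Notes in the annotation mention 53 loci with ATMG identifiers, and only 4 of them are among the 32, so many mitochondrial loci are not listed. The sums and shares cover the listed models, and how these were chosen is not recorded. Chloroplast models had 2120 counts in library 1 and 2391 in library 2, or 0.0825% (95% Wilson interval 0.0790 to 0.0860) and 0.0993% (0.0954 to 0.103) of the listed counts. Mitochondrial models had 1222 counts in library 1 and 1569 in library 2, or 0.0475% (0.0449 to 0.0503) and 0.0651% (0.0620 to 0.0684). These intervals cover counting error only, and for either genome those of the 2 libraries do not overlap. Averaged over both libraries, the summed level was 906 ± 78.6 CPM for the chloroplast genome and 561 ± 99.6 CPM for the mitochondrial genome (SD, n = 2). In bulk shoots, cell composition, organelle RNA per cell, the unrecorded RNA selection and filters, and the incomplete listing of models cannot be told apart in these sums. The ratio of chloroplast to mitochondrial counts was 1.73 in library 1 and 1.52 in library 2. Whether the models listed for each genome are of like kinds, protein or ribosomal RNA genes, was not determined, so this ratio covers the listed models only. As a scale for these sums, 140 single nuclear models in library 1 and 104 in library 2 each had more counts than all 41 chloroplast models together. More counts than all 32 mitochondrial models together were found for 278 single nuclear models in library 1 and 187 in library 2.

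Within the chloroplast genome 5 models held most of the counts. ATCG01130 had 394 counts in library 1 and 660 in library 2, ATCG00480 had 515 and 370, and ATCG00740 had 381 and 356. ATCG00810 had 230 counts in library 1 and 470 in library 2, and ATCG00440 had 358 and 142. Together these 5 models took 88.6% of the chloroplast counts in library 1 (95% Wilson interval 87.2 to 89.9) and 83.6% in library 2 (82.0 to 85.0). They were the highest 5 in each library, but their order differed: ATCG00480 led in library 1 with 24.3% of the chloroplast counts and was the third in library 2 with 15.5%, while ATCG01130 was second in library 1 with 18.6% and led in library 2 with 27.6%. The sixth model in both libraries, ATCG00120, followed at a distance with 65 counts in library 1 and 82 in library 2. The highest chloroplast model in each library was still exceeded in counts by many nuclear ones, 850 in library 1 and 589 in library 2.

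**Figure D1:**
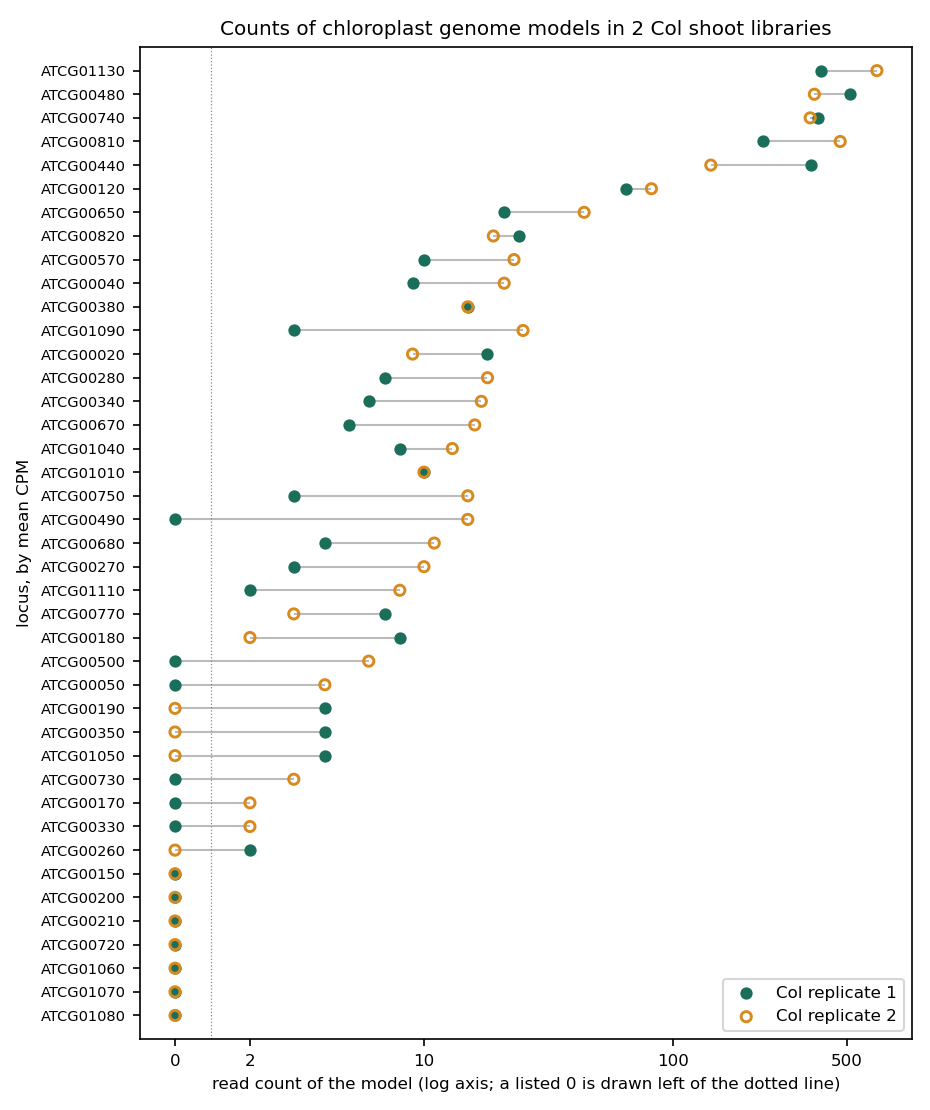
Read counts of the 41 chloroplast genome models (rows, ordered by mean CPM) in Col replicate 1 (filled points) and Col replicate 2 (open points), on a log axis with listed zeros left of the dotted line. The upper 5 loci lie at 142 to 660 counts, ATCG00120 follows at 65 and 82, and 7 loci stand at 0 in both libraries.

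The remaining 36 chloroplast models shared 242 counts in library 1 and 393 in library 2, which is 97.1 CPM and 158 CPM. For these models together the log2 ratio of library 1 over library 2 was −0.70, against −0.09 for the 5 leading models together. The median count per chloroplast model was 4 in library 1 and 10 in library 2. From 10 up to under 100 counts were listed for 7 models in library 1 and for 16 in library 2, while 16 models in library 1 and 9 in library 2 had 2 to 9 counts. The named models belong to this lower range. ATCG00670, the Clp protease subunit gene, had 5 counts in library 1 and 16 in library 2 (4.22 ± 3.13 CPM, SD, n = 2). ATCG00750, the gene of ribosomal protein S11, had 3 counts in library 1 and 15 in library 2 (3.62 ± 3.42 CPM). Both were higher in library 2, and both lay below the mean of 5 CPM that the test between the libraries required.

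Within the mitochondrial genome 2 models held most of the counts. ATMG01390 had 487 counts in library 1 and 610 in library 2, and ATMG00020 had 294 and 519. Neither has a name here, so whether they are genes of proteins or of ribosomal RNA was not determined. These models ranked first and second in both libraries and together took 63.9% of the mitochondrial counts in library 1 (95% Wilson interval 61.2 to 66.6) and 72.0% in library 2 (69.7 to 74.1). Next by mean level was ATMG00730, the gene of cytochrome c oxidase subunit 3, with 95 counts in library 1 and 140 in library 2, or 7.77% and 8.92% of the mitochondrial counts. ATMG01170 had 178 counts in library 1 and 52 in library 2, so it ranked above ATMG00730 in library 1 and below it in library 2. The 5 models with the highest mean level, which include ATMG00870 with 21 and 57 counts, took 88.0% of the mitochondrial counts in library 1 (86.0 to 89.7) and 87.8% in library 2 (86.1 to 89.4). The other 27 shared 147 counts in library 1 and 191 in library 2.

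**Figure D2:**
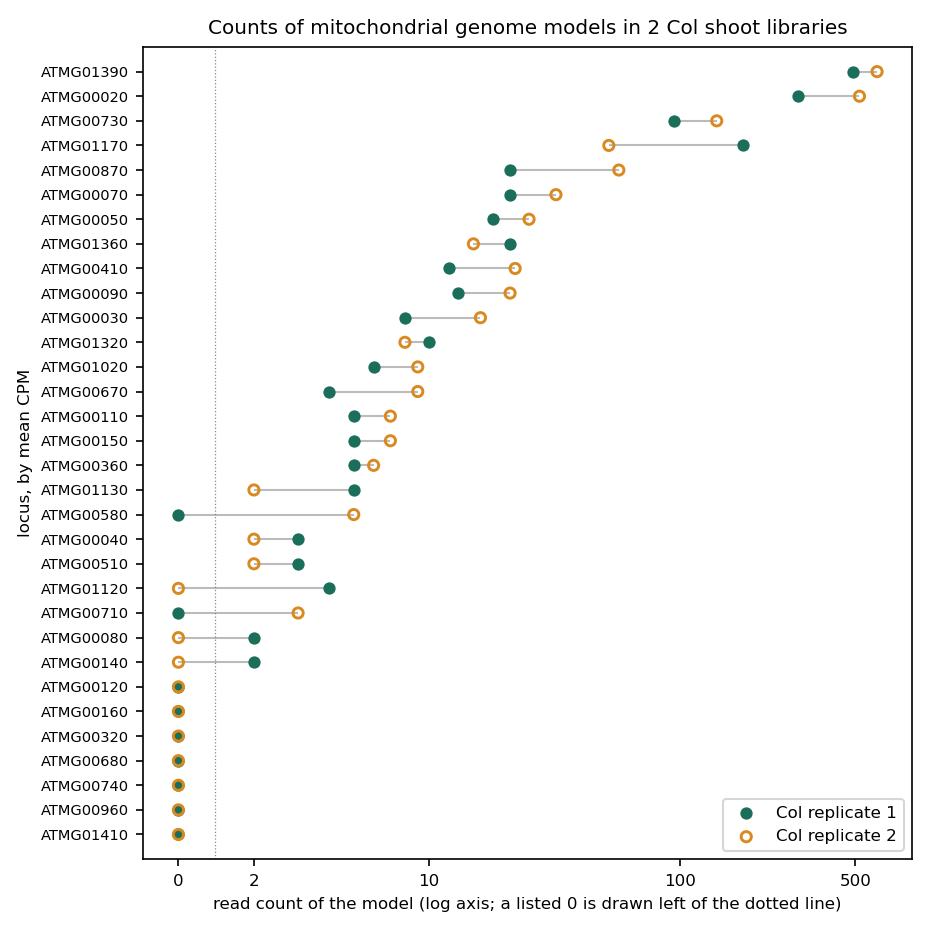
Read counts of the 32 mitochondrial genome models (rows, ordered by mean CPM) in Col replicate 1 (filled points) and Col replicate 2 (open points), on a log axis with listed zeros left of the dotted line. ATMG01390 and ATMG00020 lie above all others in both libraries, and 7 loci stand at 0 in both.

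The other named mitochondrial models had few counts. ATMG00410, of ATP synthase, had 12 counts in library 1 and 22 in library 2 (6.83 ± 2.85 CPM, SD, n = 2), a difference that did not pass the exact binomial test (adjusted p = 0.182). ATMG01320, of complex I, had 10 counts in library 1 and 8 in library 2 (3.62 ± 0.562 CPM). ATMG00960, of cytochrome c assembly, was listed at 0 in both libraries. Of the respiratory genes with a name, cytochrome c oxidase subunit 3 was therefore the one with most counts, at 47.2 ± 12.9 CPM. The median count per mitochondrial model was 5 in library 1 and 6.5 in library 2.

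The concentration of counts can be put as a number of models. To reach 50% of the counts of the genome, counting from the highest model down, 3 chloroplast models and 2 mitochondrial models were needed in each of the 2 libraries. The inverse of the summed squared shares, which equals the number of models if all had the same count, was 5.97 in library 1 and 5.998 in library 2 for the 41 chloroplast models. For the 32 mitochondrial models it was 4.07 in library 1 and 3.67 in library 2. Both libraries thus had similar values, although single models changed places.

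**Figure D3:**
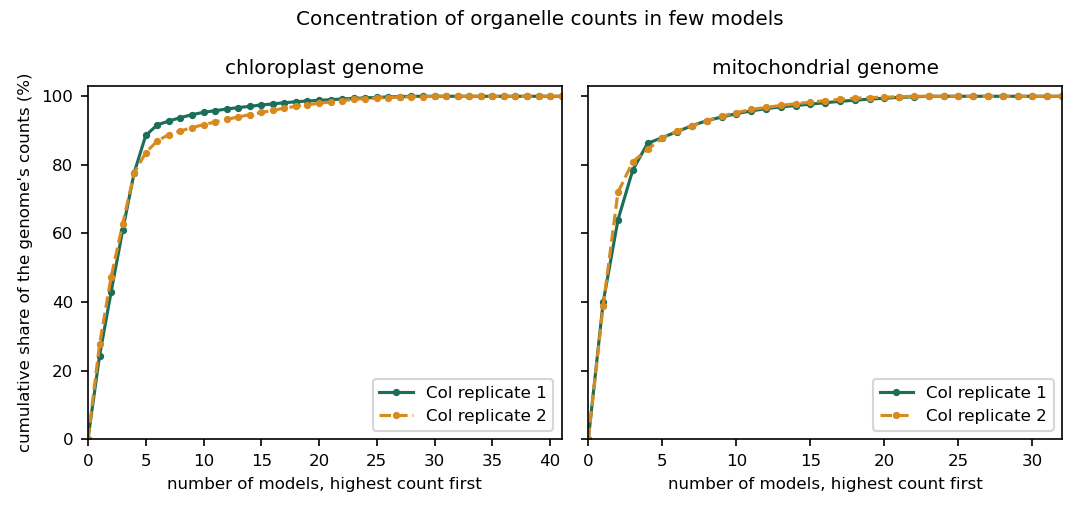
Cumulative share of the counts of each genome (vertical axis, percent) against the number of models, taken from the highest count down within each library, for Col replicate 1 (solid) and Col replicate 2 (dashed). The lines pass 50% at the third chloroplast model and at the second mitochondrial model in both libraries.

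A count above 0 in both libraries was listed for 24 of 41 chloroplast models and 20 of 32 mitochondrial models. In library 1 alone 4 chloroplast and 3 mitochondrial models were listed above 0, and in library 2 alone 6 and 2. Those seen in a single library had at most 6 counts, with the exception of ATCG00490, which was listed at 0 in library 1 and at 15 in library 2. Listed at 0 in both libraries were 7 chloroplast models (17.1%) and 7 mitochondrial models (21.9%), beside 3421 of 17848 nuclear models (19.2%). The chloroplast models at 0 were ATCG00150, ATCG00200, ATCG00210, ATCG00720, ATCG01060, ATCG01070 and ATCG01080. The mitochondrial ones were ATMG00120, ATMG00160, ATMG00320, ATMG00680, ATMG00740, ATMG00960 and ATMG01410. The level needed for the test below, a mean of 5 CPM, was met by 14 chloroplast models (34.1%) and 10 mitochondrial models (31.2%), beside 10677 nuclear models (59.8%). At 100 CPM or more stood 5 chloroplast models (12.2%), 2 mitochondrial models (6.25%) and 1983 nuclear models (11.1%).

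The 2 Col libraries differed beyond counting noise for part of the organelle models, as they did for nuclear ones. An exact binomial test (two-sided, Benjamini-Hochberg adjusted over all 10701 models at 5 CPM or more) set the division of a model's counts between the libraries against the ratio of their scaled sizes. It compares 2 libraries of 1 genotype and not conditions. Of 14 chloroplast models tested 6 passed, 2 higher in library 1 and 4 higher in library 2, and of 10 mitochondrial models 5 passed, 1 higher in library 1 and 4 higher in library 2. Over all tested models the percentage called was 54.5, with 27.4 higher in library 1 and 27.1 higher in library 2, so the number of organelle models called is near the background. The median absolute log2 ratio was 0.97 for the tested chloroplast models and 0.61 for the mitochondrial ones, beside 0.58 for all models tested. At 20 CPM or more stood 6 of the 14 chloroplast and 4 of the 10 mitochondrial models, beside 6994 of the 10701. Ratios at lower levels rest on few counts, and medians at matched levels were not computed. Library 2 was the higher library for 9 of 14 chloroplast and 8 of 10 mitochondrial models tested, beside 5387 of 10701 over all.

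Among the leading chloroplast models the direction of the difference was not shared. ATCG00440 stood at 144 CPM in library 1 and 57.1 CPM in library 2 (log2 ratio of library 1 over library 2, 1.32, adjusted p = 2.96e-21 by the exact binomial test). ATCG00810 stood at 92.3 CPM in library 1 and 189 CPM in library 2 (log2 ratio −1.03, adjusted p = 7.15e-19 by the same exact test). ATCG01130 was also higher in library 2 (−0.75) and ATCG00480 higher in library 1 (0.47), while ATCG00740, at 153 CPM in library 1 and 143 CPM in library 2 (log2 ratio 0.09), did not pass the exact test. The lowest log2 ratio among tested chloroplast models was that of ATCG01090, −2.63, from 3 counts in library 1 and 25 in library 2.

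In the mitochondrial genome the leading models ATMG01390 and ATMG00020 were both higher in library 2, with log2 ratios of −0.33 and −0.82. ATMG00730, of cytochrome c oxidase, stood at 38.1 CPM in library 1 and 56.3 CPM in library 2 (log2 ratio −0.56, adjusted p = 0.00850 by the exact binomial test). ATMG00870 was higher in library 2 as well (−1.39). In the other direction, ATMG01170 stood at 71.4 CPM in library 1 and 20.9 CPM in library 2 (log2 ratio 1.75, adjusted p = 3.34e-16 by the exact test). Without ATMG01390 and ATMG00020, the other 30 mitochondrial models summed to 177 CPM in either library. This equal sum includes ATMG01170. Without ATMG00730 and ATMG01170 as well, the other 28 models summed to 67.4 CPM in library 1 and 99.8 CPM in library 2 (log2 ratio −0.57).

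**Figure D4:**
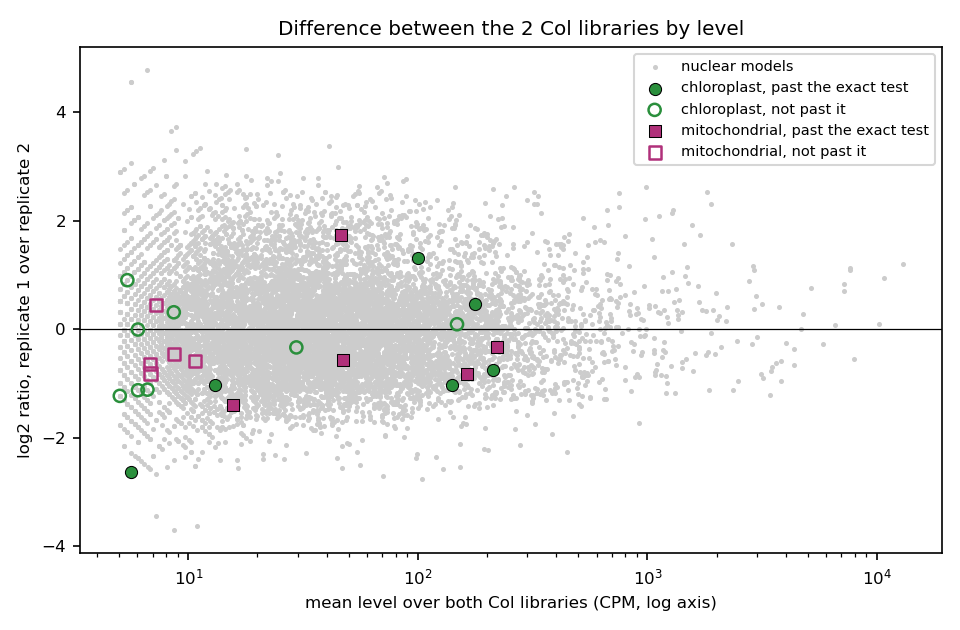
Log2 ratio of Col replicate 1 over Col replicate 2 (vertical axis) against the mean level over both libraries (CPM, log axis) for all models at 5 CPM or more. Filled green circles (6 chloroplast) and filled purple squares (5 mitochondrial) passed the exact binomial test, open symbols did not, and grey points are the nuclear models.

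Organelle models below 5 CPM were not tested. Of the 20 such chloroplast models with a count above 0, 14 were higher in library 2 and 6 in library 1, and the highest single count was 17. Of the 15 such mitochondrial models, 8 were higher in library 2 and 7 in library 1, with a highest count of 16. The median log2 ratio of the tested chloroplast models was −0.54, and at a mean of at least 20 CPM, where 6 models remain, it was −0.12. For the mitochondrial models it was −0.57 with 10 models tested and −0.44 with the 4 at 20 CPM or more. The median over all models tested was 0.00.

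Transcription of the chloroplast genome depends on a bacterial-type RNA polymerase (PEP), whose promoter recognition is set by nuclear-encoded sigma factors. Of 6 sigma factor genes 5 were listed and tested and 3 passed, where the percentage called over all tested models was 54.5 (27.4 higher in library 1 and 27.1 higher in library 2). SIG6 was the one above 100 CPM, at 189 CPM in library 1 and 135 CPM in library 2, and it was called higher in library 1. SIG5, known for its induction by stress and blue light, was also called higher in library 1 (11.2 and 4.02 CPM), and SIG4 was called higher in library 2 (7.22 and 14.9 CPM). SIG2 and SIG3 did not pass the exact test (adjusted p = 0.904 and 0.111). Of the 12 proteins that associate with PEP, 10 had a listed gene, 8 were tested and 6 passed, 2 higher in library 1 and 4 higher in library 2, against the same percentage of 54.5. Among them PTAC3 stood at 97.9 CPM in library 1 and 163 CPM in library 2, and PTAC12 at 109 and 138 CPM. MURE had 71.8 CPM in library 1 and 104 CPM in library 2, and all 3 of these passed. PTAC6 and FSD2 were listed at 0 in both libraries. Of 3 phage-type RNA polymerase genes 1 was listed, MGP3 (AT1G68990), at 40.5 CPM in library 1 and 55.5 CPM in library 2 (adjusted p = 0.0359 by the exact test).

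The nuclear genes that act on organelle RNA after transcription are read against the same background, 54.5 percent called over all tested models and about as many in either direction. Of 5 MORF genes, which take part in RNA editing in both organelles, 4 were listed and tested and 3 passed, 2 higher in library 1 and 1 in library 2. MORF8 stood at 402 CPM in library 1 and 328 CPM in library 2, and MORF9 at 119 CPM in library 1 and 273 CPM in library 2. Of 12 genes of RNA stability and decay, 10 were listed and tested and 7 passed, 4 higher in library 1 and 3 higher in library 2. CP31A, a chloroplast RNA-binding protein gene, had 823 CPM in both libraries. CP33A, of the same family, had 152 CPM in library 1 and 209 CPM in library 2. MRL1, needed to stabilise the transcript of the Rubisco large subunit, had 151 CPM in library 1 and 95.8 CPM in library 2.

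The complexes whose subunits are split between the genomes were read through their nuclear partners. Of 12 nuclear genes for subunits of chloroplast complexes, 7 were listed, and all 7 passed the exact test, 4 higher in library 1 and 3 higher in library 2. The percentage called over all models was 54.5 at 5 CPM or more and 66.2 at 20 CPM or more, and 6 of these 7 genes stood at 100 CPM or more. PSBR, of photosystem II, stood at 18118 CPM in library 1 and 7812 CPM in library 2, PSBO1, of the oxygen-evolving complex, at 8960 and 5467 CPM, and PSAD1, of photosystem I, at 9168 and 5162 CPM. The summed level of these 7 genes was 39809 CPM in library 1 and 24564 CPM in library 2, beside 851 and 962 CPM for all 41 chloroplast genome models. Of 16 nuclear genes for subunits of mitochondrial complexes, 11 were listed, 8 were tested and 5 passed, all 5 higher in library 1, beside 54.5 percent called over all tested models and 27.4 percent called higher in library 1. AT5G08670, of the mitochondrial ATP synthase, stood at 841 CPM in library 1 and 635 CPM in library 2. CI51, of complex I, stood at 510 CPM in library 1 and 363 CPM in library 2, and AT5G13430, the iron-sulfur subunit of complex III, at 462 and 229 CPM. The summed level of these 11 genes was 2508 CPM in library 1 and 1779 CPM in library 2, beside 490.4 and 631 CPM for all 32 mitochondrial genome models.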

How the data were processed

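RNA-seq read counts of 2 Col shoot libraries were used. The deposited values are raw counts per gene model, per the file headers, with no normalization recorded. TAIR10 is the build that the submitters' processing notes name. Aligner, counting tool, strand setting, filters and the handling of reads that match several places are not recorded in the sources used here. The last point bears on repeated chloroplast genes and on mitochondrial genes with a nuclear copy. The 6 columns whose names match no sample title were not used, so the planned contrasts between genotypes were not made. Depth was 2571129 and 2408685 listed counts, which is 55.5% and 53.6% of an unexplained number in each column name.

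TMM scaling over all models was done in edgeR 4.0.16 (R 4.3.3). Log2 ratios used CPM plus 0.5. The exact binomial test doubled the smaller tail (scipy 1.17.1), for models with a mean of at least 5 CPM, adjusted by Benjamini-Hochberg and called below 0.05. It was tried on simulated counts that held counting noise and 4-fold changes only, which does not cover the wider spread between these 2 libraries. The replicates are called biological in the labels, which do not say whether plates or days were separate, so the spread may be technical. Without molecular identifiers, reads may be PCR copies, so intervals cover counting error only.

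Of 17637 nuclear loci, 17614 matched the TAIR10.1 annotation by locus tag, and 0 organelle loci did. Organelle names came from its notes on similar nuclear genes. Functional classes and lengths could therefore not be assigned. The rule for named models was the 10 highest per genome, those that passed the test and, by name, those at 0 in both libraries. The text gives fewer of these because most have no name, and adds the models with a name and ATCG00490, which was chosen after its values were seen. Of each list of nuclear partners or regulators up to 3 members with the highest mean CPM were named, and SIG2, SIG5, PTAC6, FSD2 and the root markers at 0 were added after their values were seen. One abundant editing factor without a symbol in the annotation was counted but not named. The members and lists were chosen with earlier results of these data known.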

Additional observations from a re-analysis of the deposited data

How the results depend on the processing

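The share of counts of a genome depends on what it is divided by. Divided by the bracketed number of each column header, the mean share was 0.0495% for the chloroplast genome and 0.0306% for the mitochondrial genome, against 0.0909% and 0.0563% of the listed counts. From single libraries the share ranged from 0.0825% to 0.0993% for the chloroplast and from 0.0475% to 0.0651% for the mitochondrial genome, and that of the 5 leading models from 83.6% to 88.6% and from 87.8% to 88.0%. With the nuclear loci that annotation notes tie to mitochondrial genes counted in, the mitochondrial share was 0.0586%. Without the 4 listed genes that have such a locus, it was 0.0505%. The number of models beyond counting noise was 6 for the chloroplast and 5 for the mitochondrial genome. It ranged from 4 (mean of at least 20 CPM, where fewer are tested) to 8 (no filter) for the chloroplast and from 4 to 5 for the mitochondrial genome, under RLE factors, no scaling, factors from nuclear models alone, the other filters and another two-sided rule of the exact test. At 20 CPM or more these are 4 of 6 chloroplast and 4 of 4 mitochondrial models, where 66.2% of all models were called. With no filter they are 8 of 34 (23.5%) and 5 of 25, where 40.5% of all models were called. The additional 2 calls with no filter were ATCG00490 and ATCG00750. The median log2 ratio stayed below 0 for both genomes under each of these scalings and filters and under pseudocounts of 0.1 and 2 CPM, from −1.03 to −0.12 for the chloroplast and from −0.66 to −0.40 for the mitochondrial genome. The other two-sided rule and the filters on the median were chosen after seeing the data. Shares by functional class and per length, the contrasts between genotypes and DESeq2 were not run. No paired analysis was possible because Col is the sole genotype with columns that match a title. Most organelle models had under 20 counts, so differences among them were not detectable at this depth unless they were several-fold.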

Other observations

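Notes in the annotation tie nuclear loci to organelle genes, and the count table lists such pairs unevenly. Such a note does not show that the nuclear locus is a copy of the organelle gene or encodes the same protein. For mitochondrial genes there are 55 pairs, with 16 nuclear loci and 4 mitochondrial loci listed, and in 0 pairs are both members listed. Cytochrome c oxidase subunit 3, for instance, is listed as ATMG00730 and not as the nuclear locus tied to it, AT2G07687. The 16 nuclear loci had 59 counts together in library 1 and 55 in library 2, with at most 17 for any locus in either library. For chloroplast genes there are 7 pairs, and both members are listed for 2. AT1G12410, the nuclear locus tied to the Clp protease subunit gene, had 602 counts in library 1 and 339 in library 2. ATCG00670 had 5 and 16. AT1G31817, the nuclear locus tied to the chloroplast gene of ribosomal protein S11, had 82 counts in library 1 and 59 in library 2. ATCG00750 had 3 and 15. In either library the nuclear count of each pair exceeded the chloroplast one. Each nuclear gene had its higher count in library 1, and each chloroplast gene had its own in library 2. AT1G12410 passed the exact binomial test between the libraries and AT1G31817 did not. Both chloroplast genes were below the level needed for that test, so opposite directions within the pairs were not tested.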
